A study of Mus musculus with 27 samples.

Results

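The genes described here are 7 that make, load, take up or break down the inhibitory transmitter GABA, or that set the chloride gradient through which it acts, followed from neural stem cells to new olfactory bulb neurons in the adult mouse. They were chosen by name, as the count rows whose Ensembl gene ID maps to Gad1, Gad2, Slc32a1, Slc6a11, Abat, Slc12a2 and Slc12a5, and all 7 were found among 45195 genes. All 7 also passed the filter on low counts in each fit. All groups come from male mice on a C57BL/6 background, aged 8 to 12 weeks, of the DiCRY line (Dcx-CreER-Rpl22.HA-eYFP) or the TiCRY line (Tlx-CreER-Rpl22.HA-eYFP). In these lines tamoxifen, given by gavage at 200 mg/kg, activates a Cre recombinase driven by Dcx, a neuroblast gene, or Tlx, a stem cell gene. Recombined cells then carry eYFP and an HA tag on the ribosomal protein Rpl22 (RiboTag).

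The stages are neural stem cells, abbreviated NSC, and early neuroblasts (ENB), both of the subventricular zone (SVZ), then late neuroblasts (LNB) and neurons (Neuron), both of the olfactory bulb (OB). For total mRNA, 200 to 500 eYFP-positive cells were sorted from the tissue of 1 to 2 mice, with 3 libraries per stage. For ribosome-bound mRNA, the HA tag was immunoprecipitated from unsorted tissue homogenate, with 3 LNB libraries and 2 of each other stage by title. The same immunoprecipitation from tissue without HA gave 3 SVZ and 3 OB control libraries, whose labelled cell type is a mix. Sample names place NSC in the TiCRY line and ENB and LNB in DiCRY, and do not spell out the line of the Neuron samples. Among the controls, 2 of the SVZ are named Cre-, 2 of the OB carry the name form of the LNB samples, and the other OB control (replicate 3) carries that of the Neuron samples. The names also hold 4d for NSC, 3dp or 3dpi for ENB and LNB in ribosome-bound mRNA, and 4wpi for Neuron, which the labels do not explain. Both Neuron ribosome-bound libraries have a sample type field that reads total mRNA, and both carry the sorting protocol. Their titles decided the group, so the labels do not settle that they were immunoprecipitated from unsorted homogenate. Every library is poly(A) mRNA amplified by Smart-seq2, so a ribosome-bound level says how much of an mRNA came down with tagged ribosomes and not how fast it was translated.

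GABA is made from glutamate by the glutamic acid decarboxylases Gad1 and Gad2 and is loaded into vesicles by Slc32a1, the vesicular inhibitory amino acid transporter. Slc6a11, a plasma membrane GABA transporter found mainly on astrocytes, removes it, and the mitochondrial transaminase Abat degrades it. Slc12a2 (NKCC1) carries chloride into cells and Slc12a5 (KCC2), a neuronal exporter, carries it out. Immature neurons, rich in the importer, are typically depolarised by GABA, mature neurons are mostly inhibited by it, and most neurons added to the adult olfactory bulb are GABAergic interneurons.

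Promoter sequence is shown for the 3 genes on which the results turn most. Gad1 and Gad2 are shown because their levels part between stages, and Slc12a5 because the promoter windows used here include a pair of its starts, which gene-level counts add together. The windows of Gad1 and Gad2 lie inside the annotated genes, which begin at 70561303 and 22621015, so they do not precede the outermost annotated start. Each run is the 250 bases before a RefSeq transcription start on the plus strand of GRCm38.p6, with capitals marking the letters CANNTG, the E-box bound by basic helix-loop-helix factors.
Gad1, chr2:70561879-70562128: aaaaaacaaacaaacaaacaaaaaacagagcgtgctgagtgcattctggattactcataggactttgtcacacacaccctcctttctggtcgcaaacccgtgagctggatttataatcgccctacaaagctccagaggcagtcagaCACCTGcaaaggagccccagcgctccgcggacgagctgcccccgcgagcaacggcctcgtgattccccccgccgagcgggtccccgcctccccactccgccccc
Gad2, chr2:22622077-22622326: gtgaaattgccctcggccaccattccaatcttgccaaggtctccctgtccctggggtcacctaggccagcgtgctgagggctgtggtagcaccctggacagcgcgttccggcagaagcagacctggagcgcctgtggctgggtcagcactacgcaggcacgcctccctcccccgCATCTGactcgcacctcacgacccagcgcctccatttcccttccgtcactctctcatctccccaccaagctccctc
Slc12a5 upstream start, chr2:164960596-164960845: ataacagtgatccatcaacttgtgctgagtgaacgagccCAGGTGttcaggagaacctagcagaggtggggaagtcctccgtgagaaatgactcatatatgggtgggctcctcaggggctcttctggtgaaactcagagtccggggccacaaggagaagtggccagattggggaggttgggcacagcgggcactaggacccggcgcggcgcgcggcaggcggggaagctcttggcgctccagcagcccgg
Slc12a5 downstream start, chr2:164967738-164967987: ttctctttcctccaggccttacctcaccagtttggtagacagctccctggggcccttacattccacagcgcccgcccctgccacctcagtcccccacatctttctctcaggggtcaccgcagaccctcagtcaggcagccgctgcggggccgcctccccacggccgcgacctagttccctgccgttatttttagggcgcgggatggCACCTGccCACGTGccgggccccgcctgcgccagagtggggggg
The windows of Gad1, Gad2 and the Slc12a5 upstream start hold 1 E-box each and that of the downstream start holds 2, and 66.2% of the 32851 promoter windows of this length hold at least 1. The Gad1 window also holds 1 TATAAA (in 12.4% of all windows) and 1 GC box, GGGCGG (32.7%). The GC box is also in the window of the Slc12a5 downstream start, and TGACG (17.8%) is in that of Gad2. TAATTA, a core recognised by homeodomain proteins such as the Dlx factors, is in 4.84% of all windows and in none of these. All motifs were searched on both strands, and a match is only a match of letters. The windows hold 17, 13, 13 and 16 CpG dinucleotides in the order printed, against a median of 6 over all windows.

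In GRCm38.p6, Gad1 (ENSMUSG00000070880) lies on chromosome 2 at 70561303 to 70602014, Gad2 (ENSMUSG00000026787) on chromosome 2 at 22621015 to 22693877, and Slc32a1 (ENSMUSG00000037771) on chromosome 2 at 158607260 to 158615747. Slc12a5 (ENSMUSG00000017740) is also on chromosome 2, at 164960846 to 164999731. Slc6a11 (ENSMUSG00000030307) lies on chromosome 6 at 114131241 to 114249886, Abat (ENSMUSG00000057880) on chromosome 16 at 8513429 to 8621568, and Slc12a2 (ENSMUSG00000024597) on chromosome 18 at 57878512 to 57946821. All reads were counted over whole genes.

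Depth was 5225929 to 15994635 counts per library in total mRNA, 6325479 to 13316334 in ribosome-bound mRNA and 5960357 to 9120659 in the controls. Summed levels of marker lists departed from the labels in several groups that touch the results below. In total mRNA, LNB replicates 1 and 3 held 8910.1 and 12325 CPM (each library's counts scaled to the same total, with edgeR's TMM factors) of 12 mature astrocyte markers, against 1441 in LNB replicate 2 and 219.5 to 1168 in ENB. Among Neuron total libraries the same sum was 1269 to 6844, and among NSC total libraries it was 6251 to 7719. The neural stem cell markers were at 7037 and 10022 in LNB replicates 1 and 3, above the 5824 to 6718 of the NSC libraries. This list shares Aldoc with the astrocyte list, so these sums are not independent. Oligodendrocyte markers were at 20058 to 20775 in ENB and 7991 to 8898 in NSC immunoprecipitates (17506 to 21929 in the SVZ controls), against 299 to 3104 in sorted NSC and ENB. In Neuron total replicates 1, 2 and 3 they were at 1977, 6468 and 9027. The sum of 8 markers of mitral, tufted and other glutamatergic neurons was 612 to 810 in Neuron total mRNA. It was 66.9 to 180 in LNB total mRNA and 406 to 606 in the OB controls. In SVZ immunoprecipitates the sum of 10 striatal projection neuron markers was 2907 to 5326, against 5161 to 5988 in the SVZ controls, whereas sorted NSC and ENB held 42.8 to 120.1. The part of these other cells in any result was not tested. ENB and LNB share animals, and p-values measure only the spread between libraries.

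**Figure D1:**
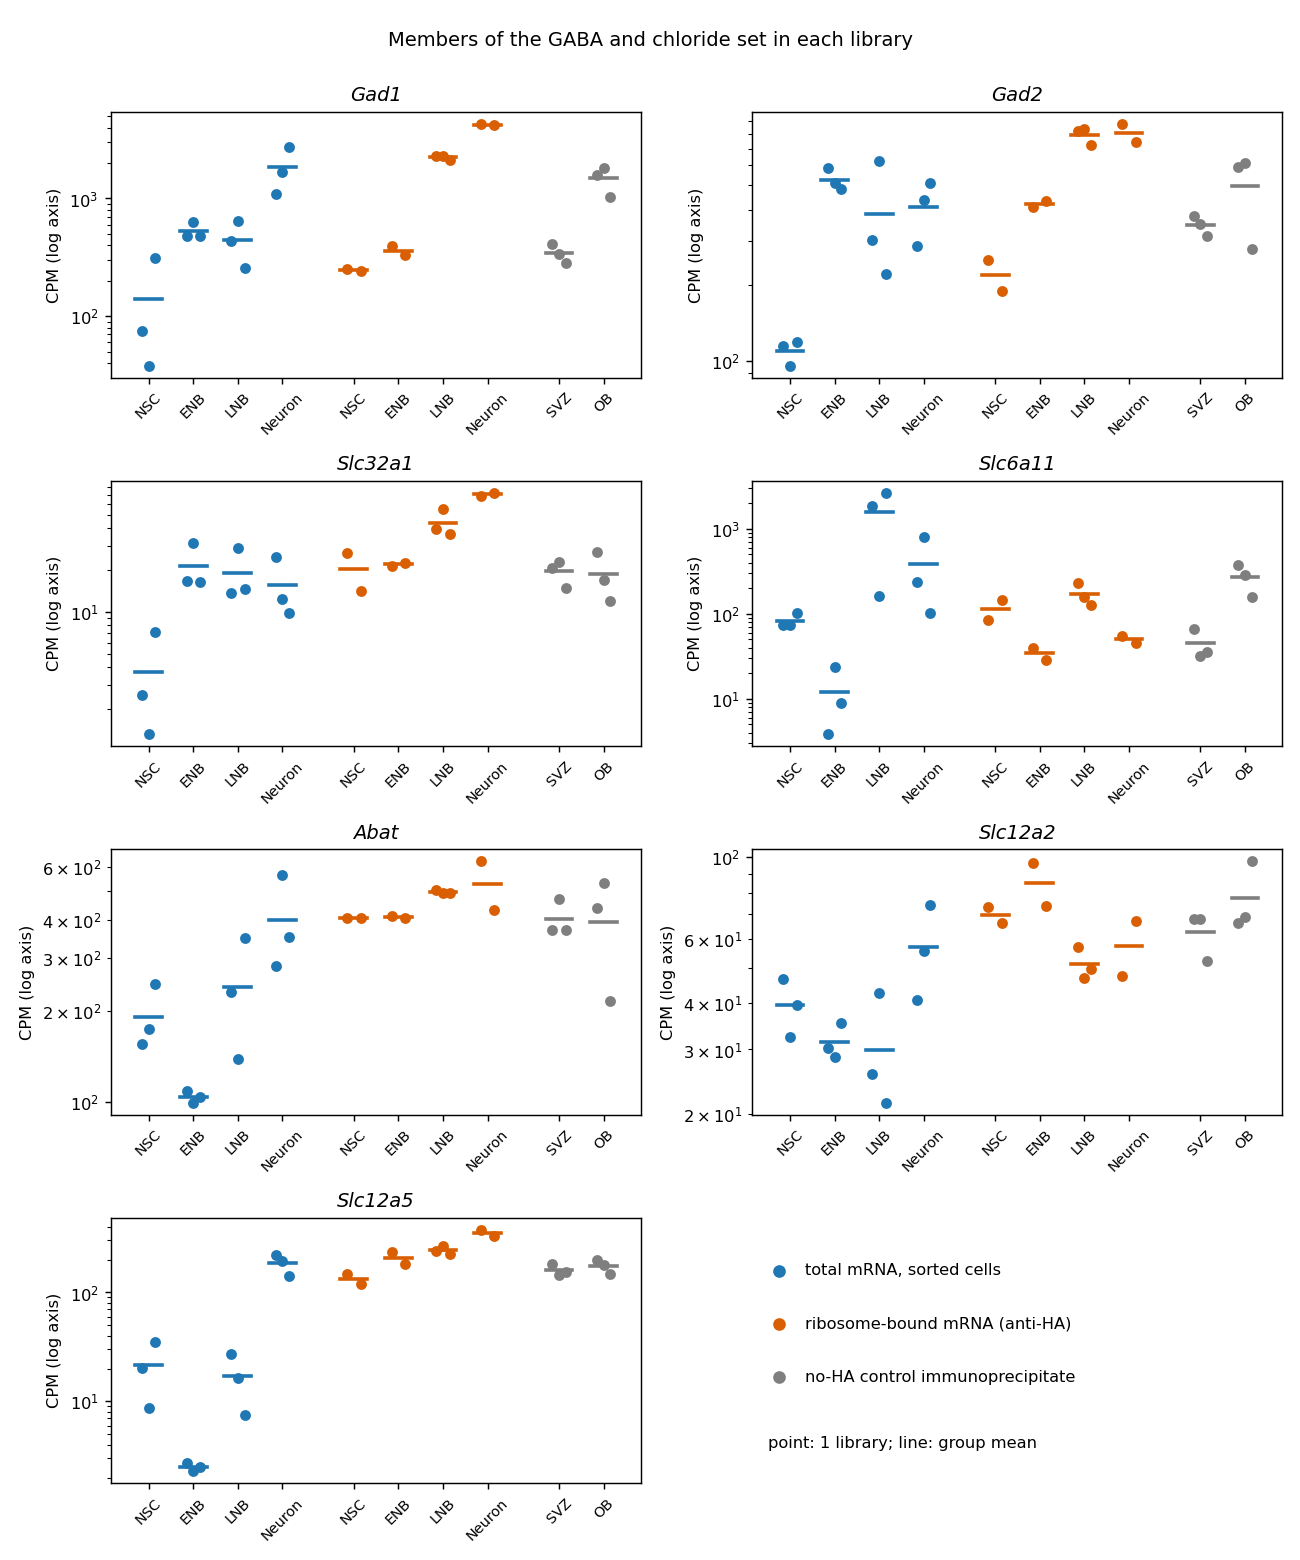
Level of each of the 7 genes in every library, in CPM with TMM scaling on a log axis, by stage. Blue points are total mRNA, orange points ribosome-bound mRNA and grey points no-HA controls, and horizontal bars are group means; Gad1 is highest in Neuron of both assays and Slc12a5 is lowest in ENB total mRNA.

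Between stages, the change of each gene was tested with edgeR's quasi-likelihood test and Benjamini-Hochberg adjustment over all genes of a fit, with a threshold of 0.05 on the adjusted p. In total mRNA, 3 of 7 passed from NSC to ENB, where 10.1% of all 17592 genes tested did, 2 of them higher (as were 4.95% of all genes) and 1 lower (5.12%). From ENB to LNB 2 of 7 were higher (2.80% of all genes higher, 3.77% called in all). From LNB to Neuron 1 of 7 was higher (5.33% higher, 14.7% called in all), and from NSC to Neuron 4 of 7 were higher (11.0% higher, 23.7% called in all). In ribosome-bound mRNA, with 19066 genes tested, 1 of 7 was lower from NSC to ENB (4.85% of all genes lower, 8.28% called in all) and 3 of 7 were higher from ENB to LNB (6.81% higher, 12.9% called in all). From LNB to Neuron 1 of 7 was lower (3.75% lower, 4.13% called in all). From NSC to Neuron 4 of 7 were higher (11.0% of all genes) and 1 lower (15.7%), with 26.7% called in all. The median log2 change of the 7 from NSC to Neuron was 2.05 in total mRNA, against -0.06 over all genes, and 1.41 in ribosome-bound mRNA, against -0.05. All genes are bulk averages, in which fewer cells of a type and less RNA per cell cannot be told apart.

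**Figure D2:**
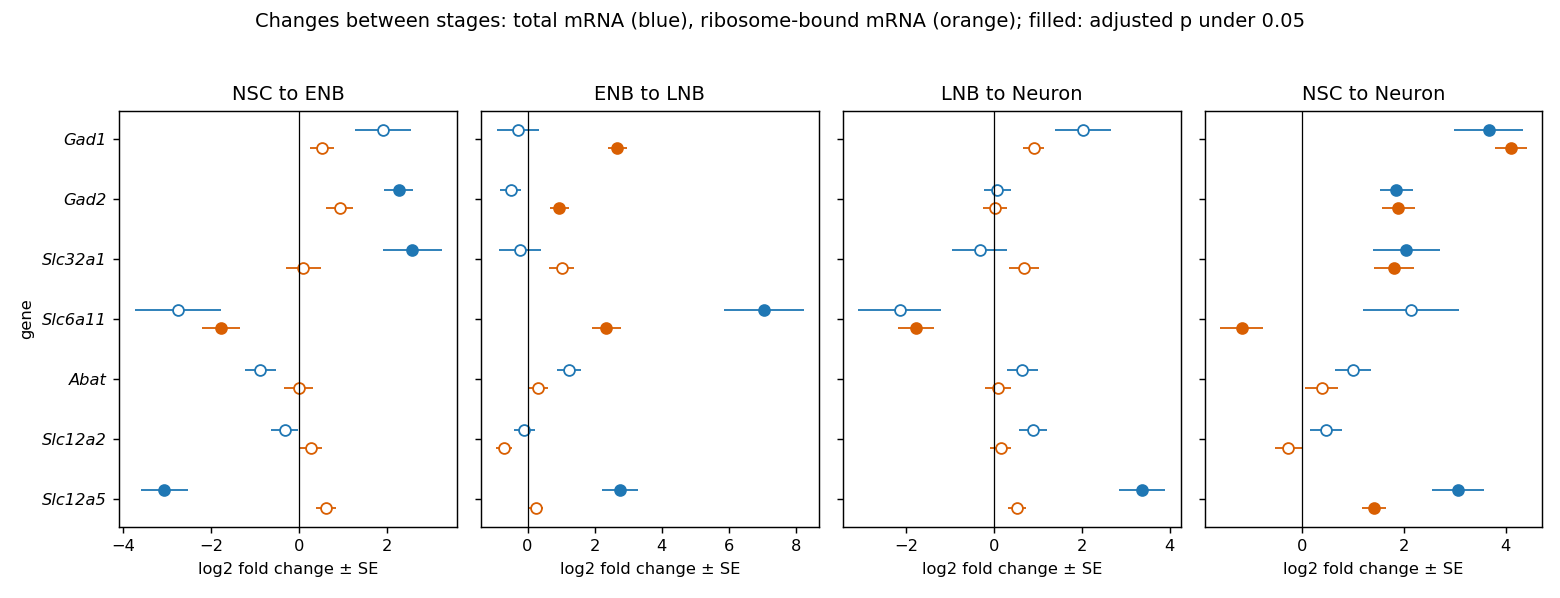
Log2 fold change ± SE of each gene between stages, with total mRNA in blue and ribosome-bound mRNA in orange; filled points have an adjusted p under 0.05 in edgeR's quasi-likelihood test. Gad1, Gad2, Slc32a1 and Slc12a5 have filled points to the right of 0 from NSC to Neuron in both assays.

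Gad1 was highest in neurons in both assays. In total mRNA its level was 74.7, 38.1 and 311 CPM in NSC, 479, 629.5 and 476 in ENB, 437, 639 and 255 in LNB, and 1092, 1686 and 2748 in Neuron. All Neuron libraries lie above all others, ENB and LNB overlap, and NSC replicate 3 stands well above the other two NSC libraries and above LNB replicate 3. Within Neuron, Gad1 and the oligodendrocyte markers are both highest in replicate 3 and lowest in replicate 1, and the part of those cells in the result was not tested. Between NSC and Neuron Gad1 rose by 3.66 ± 0.68 on the log2 scale (SE, n = 3 and 3; adjusted p = 0.00265, edgeR), and the change was 5.58 between the 3 Neuron libraries and the 1 NSC library that share a second index sequence, the only batch-like mark in the labels. The single steps did not pass in total mRNA: 1.93 ± 0.64 from NSC to ENB (edgeR adjusted p = 0.0742), -0.29 ± 0.61 from ENB to LNB (0.883) and 2.02 ± 0.64 from LNB to Neuron (0.0526). Without NSC replicate 3 the first step was 3.24 with an adjusted p of 0.00858, and DESeq2 called it as well (1.88, adjusted p = 0.0219). Within the sets of libraries that share an index the first step was 3.63 and 1.71. With RLE scale factors, DESeq2, no filter or expected counts the last step passed, at 2.14 to 2.25 with adjusted p of 0.00507 to 0.0487.

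In ribosome-bound mRNA Gad1 lay at 253 and 241 CPM in NSC, 391 and 328 in ENB, 2304, 2309.8 and 2125 in LNB, and 4266 and 4167 in Neuron. The stages do not overlap, and on a log scale the widest gap is between ENB and LNB, where the tissue also changes from SVZ to OB. Gad1 rose there by 2.68 ± 0.28 (SE, n = 2 and 3; edgeR adjusted p = 9e-06) and from NSC to Neuron by 4.11 ± 0.31 (n = 2 and 2; 2.51e-07). The no-HA controls moved the same way, from 412, 336 and 286 CPM in SVZ to 1596, 1819 and 1038 in OB, a difference of 2.00 ± 0.23 (edgeR adjusted p = 0.000020). With that control difference subtracted, the ENB to LNB change was 0.68 (adjusted p = 0.437) and the NSC to Neuron change 2.11, which still passed. From LNB to Neuron, where both immunoprecipitates share the OB control, the difference was 0.90 ± 0.25 (edgeR adjusted p = 0.0513). It passed with RLE factors (0.97, adjusted p = 0.0332), DESeq2 (0.97, 0.000871), no filter (0.0322) and an index term (1.57, 0.00789).

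Gad2, the decarboxylase tied to synaptic vesicles, rose at the first step in sorted cells, and no later step passed the test. Its total mRNA was 114, 95.9 and 119 CPM in NSC, 586, 510.0 and 486 in ENB, 304, 623 and 221 in LNB, and 287, 436 and 511 in Neuron. All 9 libraries of the later stages exceed all NSC libraries, and those 3 stages overlap one another, with LNB the most spread. Gad2 rose by 2.27 ± 0.33 from NSC to ENB (SE, n = 3 and 3; edgeR adjusted p = 0.00255) and was 1.85 ± 0.32 higher in Neuron than in NSC (0.00177). Later steps were -0.50 ± 0.31 (edgeR adjusted p = 0.453) and 0.08 ± 0.31 (0.901). Without LNB replicate 2, which is the highest of its group, Gad2 was lower in LNB than in ENB (-1.04, adjusted p = 0.0359).

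Ribosome-bound Gad2 was 252 and 189 CPM in NSC, 409 and 435 in ENB, 820.1, 841 and 722 in LNB, and 875 and 744 in Neuron. LNB and Neuron overlap, and both lie above ENB. From NSC to ENB the difference was 0.93 ± 0.31 (edgeR adjusted p = 0.0732), which passed with DESeq2 (1.00, 0.0113) and with no filter (0.0367). The ENB to LNB rise was 0.95 ± 0.29 (SE, n = 2 and 3; edgeR adjusted p = 0.0398), a call that was lost without any 1 of the 5 libraries (ENB replicate 1 or 2 0.202 and 0.139, LNB replicate 1, 2 or 3 0.0903, 0.114 and 0.0768). It was also lost with RLE factors (0.80, 0.0729), an index term (0.0629), expected counts (0.0521) and the control difference subtracted (0.54, 0.577). From NSC to Neuron Gad2 was 1.89 ± 0.32 higher (edgeR adjusted p = 0.00034), and 1.49 with the control difference subtracted. Between LNB and Neuron the difference was 0.02 ± 0.28 (0.991).

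The balance of the decarboxylases was compared per length, as the log2 ratio of Gad1 to Gad2 in TPM (a length-corrected share of the library's transcripts, with 1 TPM added to each). In total mRNA the ratio was -0.73, -1.42 and 1.50 in NSC, -0.42, 0.14 and -0.19 in ENB, 0.22, 0.23 and 0.33 in LNB, and 2.82, 2.96 and 3.43 in Neuron. Neuron libraries lie above all others, NSC spans both neuroblast stages, and LNB lies just above ENB. The ratio differed across the 4 stages by an exact permutation test of the F statistic (p = 0.01396, adjusted over 4 such tests 0.01396). In ribosome-bound mRNA it was 1.03 and 1.12 in NSC, 0.91 and 0.49 in ENB, 2.43, 2.37 and 2.47 in LNB, and 3.16 and 3.45 in Neuron (exact permutation p = 0.0007937, adjusted 0.001587). The controls stood at 0.94 ± 0.17 in SVZ and 2.56 ± 0.15 in OB (SD, n = 3 each), so the ribosome-bound ratio of NSC, ENB and LNB lay close to that of the tissue control and that of Neuron lay above it.

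The unit sets the size of this ratio. A Gad2 TPM stood for 1.73 to 2.03 CPM in NSC, ENB and LNB total mRNA, but for 3.7 in Neuron total mRNA and 3.78 to 5.22 in ribosome-bound mRNA, whereas for Gad1 the figure was 1.85 to 2.75 in all of these groups. With CPM in place of TPM the mean ratio in Neuron total mRNA was 2.10 and not 3.07, and in NSC and ENB ribosome-bound mRNA it was 0.18 and -0.24. The stages still differed with CPM, with adjusted exact permutation p of 0.02442 in total mRNA and 0.001587 in ribosome-bound mRNA.

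**Figure D3:**
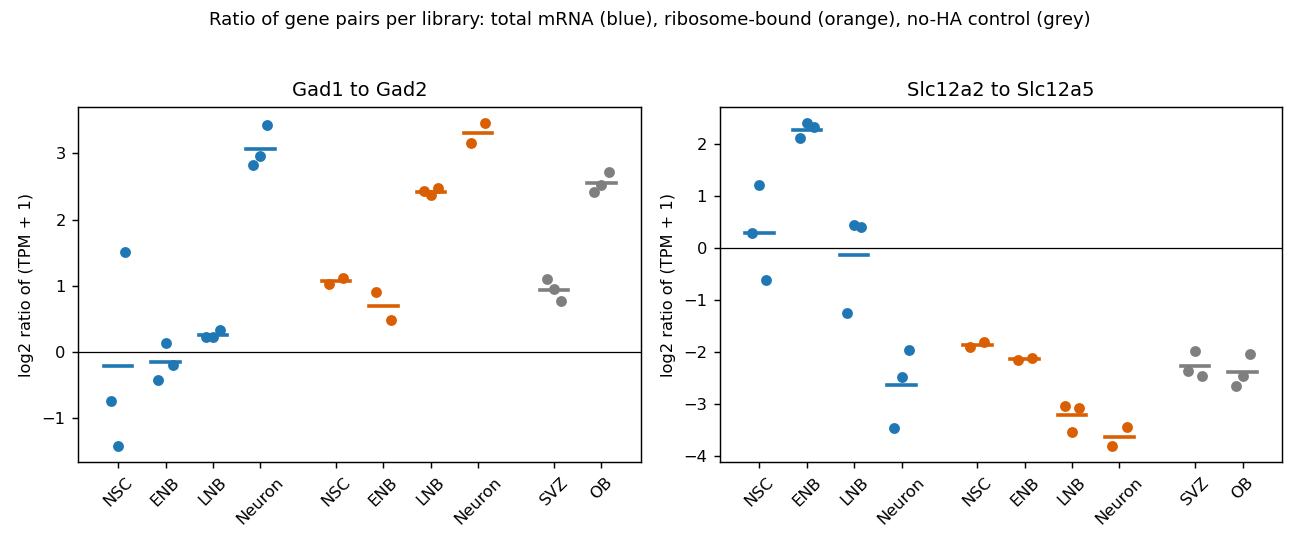
Log2 ratio of (TPM + 1) for Slc12a2 to Slc12a5 and for Gad1 to Gad2 in every library, with total mRNA in blue, ribosome-bound mRNA in orange and no-HA controls in grey, by stage or control tissue. In total mRNA the chloride pair falls from ENB (2.12 to 2.41) to Neuron (-3.47 to -1.96), and the Gad pair is highest in Neuron (2.82 to 3.43). Slc12a5 in ENB total mRNA lies below the 1 TPM added.

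Slc32a1 was the least abundant of the genes for making and loading GABA. Its total mRNA was 2.54, 1.32 and 7.13 CPM in NSC, 16.8, 31.4 and 16.5 in ENB, 13.7, 28.7 and 14.6 in LNB, and 24.7, 12.3 and 9.77 in Neuron. NSC lies below all other libraries and the 3 later stages overlap. It rose by 2.59 ± 0.67 from NSC to ENB (SE, n = 3 and 3; edgeR adjusted p = 0.0306) and was 2.05 ± 0.65 higher in Neuron than in NSC (0.0405). The first of these calls was lost without NSC replicate 1 or 2 (adjusted p = 0.125 and 0.108) or without ENB replicate 1, 2 or 3 (0.0644, 0.0989 and 0.0612). The second was lost without NSC replicate 1 or 2 (0.123 and 0.132) or Neuron replicate 1 or 2 (0.126 and 0.051). A replicate block (adjusted p = 0.0682 and 0.0776) and expected counts (0.104 and 0.105) also ended both, and an index term ended the second (2.47, 0.0577).

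Ribosome-bound Slc32a1 was 26.8 and 14.1 CPM in NSC, 21.6 and 22.4 in ENB, 39.3, 55.1 and 36.3 in LNB, and 68.8 and 72.1 in Neuron. LNB and Neuron lie above the SVZ stages and do not overlap each other. Between NSC and Neuron it rose by 1.81 ± 0.39 (SE, n = 2 and 2; edgeR adjusted p = 0.00287), and its controls were alike in both tissues, 20.8, 23.0 and 14.9 in SVZ and 27.1, 16.9 and 11.9 in OB. With the control difference subtracted the rise was 1.99. From ENB to LNB the difference was 1.02 ± 0.36 (edgeR adjusted p = 0.0751). It passed over the 4 libraries of shared animals with the animal as a block (0.99, 0.0277) and with the replicate block (1.21, 0.0324). Gm14204, a gene that overlaps Slc32a1, was more abundant than it in ENB total mRNA (178, 154 and 187 CPM) and fell from LNB to Neuron by 1.49 (edgeR adjusted p = 0.026). The strand setting of the counting is not given in the sources used here, so reads of these overlapping genes may not be told apart.

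Slc6a11 differed most between libraries of a stage. In total mRNA it was 73.3, 73.9 and 101 CPM in NSC, 3.85, 23.7 and 9.05 in ENB, 1870.3, 162 and 2642 in LNB, and 237, 805 and 102 in Neuron. The LNB libraries with the high levels, replicates 1 and 3, are those with 8910.1 and 12325 CPM of mature astrocyte markers, and within Neuron the highest Slc6a11 is in replicate 2, which has the highest astrocyte sum (6844). The NSC total libraries, however, held 6251 to 7719 CPM of these markers with Slc6a11 at only 73.3 to 101. From ENB to LNB Slc6a11 rose by 7.04 ± 1.19 (SE, n = 3 and 3; edgeR adjusted p = 0.0124). Without LNB replicates 1 and 3 together the difference was 3.71 (adjusted p = 0.248). The call was also lost without ENB replicate 1 (0.0543) or ENB replicate 3 (0.0771), and over the shared animals with the animal as a block it was 5.47 (0.283). The astrocyte list itself had 8 of 12 genes higher and 0 lower at this step, and 0 higher and 7 lower from NSC to ENB, where Slc6a11 was at -2.75 ± 0.98 (edgeR adjusted p = 0.0948; DESeq2 0.0147). The part of astrocyte RNA in the Slc6a11 result was not tested beyond leaving out these libraries. Between NSC and Neuron the difference was 2.14 ± 0.95 (edgeR adjusted p = 0.121), and it passed with DESeq2 (2.26, 0.04) and with an index term (3.11, 0.0353). From LNB to Neuron the estimate was -2.15 ± 0.94 (edgeR adjusted p = 0.148), but it was 1.23 among the 3 Neuron and 1 LNB libraries that share an index.

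In ribosome-bound mRNA Slc6a11 was 84.7 and 146 CPM in NSC, 39.9 and 29.0 in ENB, 232, 157 and 127 in LNB, and 55.3 and 45.7 in Neuron. It fell by 1.76 from NSC to ENB (SE 0.44, n = 2 and 2; edgeR adjusted p = 0.023), rose by 2.35 ± 0.42 from ENB to LNB (0.00144) and fell by 1.77 from LNB to Neuron (SE 0.41; 0.0214). Its control was also higher in OB (371, 287 and 157) than in SVZ (67.2, 31.7 and 35.6), by 2.49 ± 0.36 (0.000189). With that difference subtracted, the ENB to LNB change was -0.14 (adjusted p = 0.942). The summed astrocyte markers were 9199 and 11294 CPM in NSC and 3577 and 3314 in ENB ribosome-bound libraries. They were 1367 to 1936 in LNB and 394 to 557 in Neuron. The controls held 2381 to 3275 in SVZ and 1478 to 3529 in OB. The part of astrocyte RNA in the Slc6a11 changes of this assay was not tested.

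The Slc6a11 falls in ribosome-bound mRNA rest on few libraries. The NSC to ENB call was lost without NSC replicate 2 (-1.27, adjusted p = 0.164), ENB replicate 1 (-2.00, 0.0833) or ENB replicate 2 (-1.57, 0.134). The LNB to Neuron call was lost without LNB replicate 1 (-1.51, 0.0911) or Neuron replicate 1 or 2 (-1.94 and -1.65, 0.0519 and 0.167), and with an index term (-0.52, 0.525). The NSC to Neuron difference, -1.19 ± 0.43 (edgeR adjusted p = 0.0499), was lost without NSC replicate 2 (-0.69, 0.351), Neuron replicate 1 (-1.33, 0.0989) or Neuron replicate 2 (-1.04, 0.204), with an index term (-0.27, 0.717) and with expected counts (-0.96, 0.0921).

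**Figure D4:**
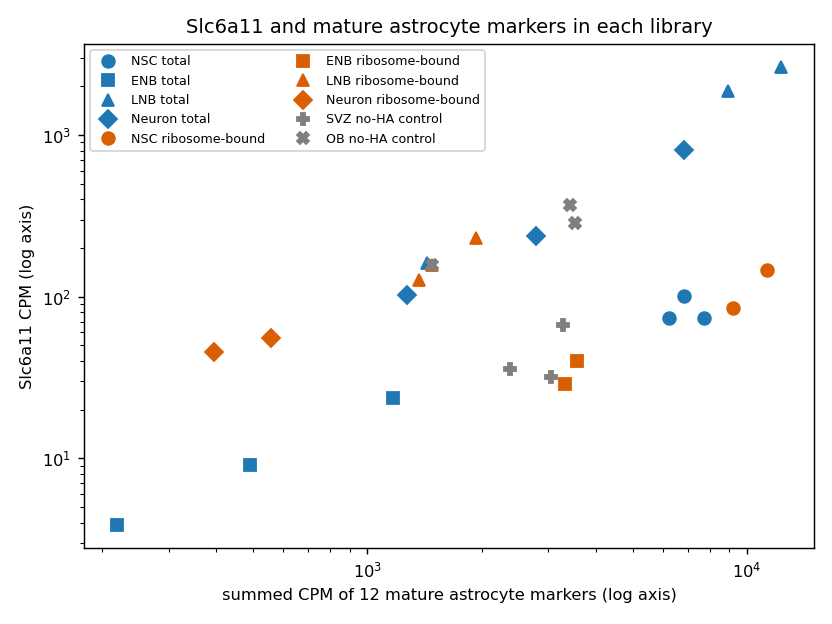
Slc6a11 level (CPM, log axis) against the summed CPM of 12 mature astrocyte markers (log axis), 1 point per library, coloured by group. LNB total replicates 1 and 3 lie at the upper right, at 1870.3 and 2642 CPM of Slc6a11, and the ENB total libraries at the lower left. The NSC total libraries lie at 6251 to 7719 CPM of the markers and 73.3 to 101 CPM of Slc6a11.

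No stage difference tested for Abat was called. ENB and Neuron, its lowest and highest stages by mean in total mRNA (104 and 399 CPM), were not compared. Its total mRNA was 155, 174 and 246 CPM in NSC, 109, 99.4 and 104 in ENB, 231, 139 and 349.9 in LNB, and 281, 565 and 352 in Neuron. ENB is the lowest stage with no overlap, and Neuron lies above NSC but overlaps LNB. The steps were -0.87 ± 0.36 (edgeR adjusted p = 0.14), 1.23 ± 0.36 (0.0838) and 0.64 ± 0.36 (0.247). The second passed with DESeq2 (1.23, adjusted p = 0.0248) and without LNB replicate 2 (1.44, 0.016), the LNB library with few astrocyte markers. In Neuron it was 1.00 ± 0.36 higher than in NSC (edgeR adjusted p = 0.0626), and it passed with RLE factors, DESeq2, no filter, an index term or without Neuron replicate 1 (adjusted p 0.0201 to 0.0492). In ribosome-bound mRNA Abat lay between 407 and 626 CPM in all 9 libraries, and in the controls between 215 and 533, with stage differences of -0.00 to 0.39 (edgeR adjusted p 0.404 to 1).

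Slc12a5, the chloride exporter, was nearly absent from sorted early neuroblasts and most abundant in sorted neurons. In total mRNA it was 20.3, 8.64 and 35.1 CPM in NSC, 2.74, 2.29 and 2.50 in ENB, 27.4, 16.4 and 7.45 in LNB, and 220.3, 194 and 140.4 in Neuron. Neuron and ENB stand apart from each other and from the rest, whereas NSC and LNB overlap. It fell by 3.06 on the log2 scale from NSC to ENB (SE 0.54, n = 3 and 3; edgeR adjusted p = 0.00602), rose by 2.75 ± 0.53 from ENB to LNB (0.0224), and rose by 3.37 ± 0.52 from LNB to Neuron (0.00162). Neuron exceeded NSC by 3.06 ± 0.52 (0.00145). The first, last and NSC to Neuron calls held in all alternatives run, 12, 13 and 12 in number, with log2 changes of -4.00 to -2.51 for the first and 3.03 to 3.91 for the last. Within sets that share an index the first was -1.55 and -3.34.

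The ENB to LNB rise of Slc12a5 was less stable. It was lost without ENB replicate 1, 2 or 3 (adjusted p = 0.0807, 0.0725 and 0.0969) or LNB replicate 1 (0.0731), without LNB replicates 1 and 3 together (2.66, 0.166) and with an index term (2.53, 0.0577). Over the shared animals with the animal as a block the adjusted p was 0.759. The summed mature neuron markers were 554 to 609 CPM in ENB, 739 to 1368 in LNB, 387 to 1319 in NSC and 8026 to 9999 in Neuron total libraries.

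In ribosome-bound mRNA Slc12a5 was 147 and 120.1 CPM in NSC, 234 and 182 in ENB, 239, 266 and 225 in LNB, and 375 and 329 in Neuron. NSC is lowest and Neuron highest with no overlap, and ENB and LNB overlap. The SVZ controls without HA held 182, 144 and 155 CPM, so the NSC and ENB immunoprecipitates were at or near the control, in contrast to the 2.29 to 35.1 CPM of sorted NSC and ENB cells. Those immunoprecipitates and controls are also the libraries with 2907 to 5988 CPM of striatal projection neuron markers. No single step passed (0.63 ± 0.23, 0.26 ± 0.21 and 0.52 ± 0.21; edgeR adjusted p = 0.104, 0.449 and 0.178). The first passed with DESeq2 (0.70, adjusted p = 0.0167) and the last with DESeq2 (0.59, 0.0357) and with an index term (1.02, 0.0411). Over the whole course, from NSC to Neuron, the rise was 1.41 ± 0.24 (0.000334; 1.39 with the control difference subtracted).

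Slc12a2, the chloride importer, had no called difference between stages in either assay. Its total mRNA was 46.5, 32.5 and 39.6 CPM in NSC, 30.2, 28.6 and 35.3 in ENB, 25.7, 42.6 and 21.5 in LNB, and 40.9, 55.7 and 74.2 in Neuron. Adjacent stages overlap, and Neuron tends to the highest values. The differences were -0.32 ± 0.31, -0.09 ± 0.31 and 0.89 ± 0.31 at successive steps (edgeR adjusted p = 0.571, 0.932 and 0.0768), and the last passed with RLE factors (1.05, 0.0432), DESeq2 (1.05, 0.00666), without LNB replicate 2 (1.30, 0.034) or without Neuron replicate 1 (1.08, 0.0446). In ribosome-bound mRNA it was 73.1 and 66.1 in NSC, 96.2 and 73.4 in ENB, 57.0, 47.0 and 49.7 in LNB, and 47.6 and 66.8 in Neuron. LNB lies below ENB, by -0.69 ± 0.24 (edgeR adjusted p = 0.0662). That passed as lower with RLE factors (-0.84, 0.0361), DESeq2 (0.0152), expected counts (0.0288) and over the shared animals with the animal as a block (-0.79, 0.0271).

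The balance of importer and exporter was also compared per length. In total mRNA the log2 ratio of Slc12a2 to Slc12a5 (TPM + 1) was 0.29, 1.22 and -0.62 in NSC, 2.12, 2.41 and 2.34 in ENB, -1.25, 0.45 and 0.41 in LNB, and -3.47, -2.49 and -1.96 in Neuron. ENB is highest and Neuron lowest with no overlap, and NSC and LNB overlap. In ENB Slc12a5 was at 0.56, 0.1 and 0.66 TPM, below the 1 TPM added. The size and spread of the ENB ratio therefore depend on that addition. The stages differed (exact permutation p = 0.0004545, adjusted over 4 tests 0.001587), with 88.5% of the variance between stages. In ribosome-bound mRNA the ratio was below 0 in all libraries, at -1.91 and -1.82 in NSC, -2.15 and -2.12 in ENB, -3.04, -3.54 and -3.07 in LNB, and -3.81 and -3.45 in Neuron (exact permutation p = 0.005556, adjusted 0.007407). LNB and Neuron overlap. The controls were at -2.27 ± 0.26 in SVZ and -2.39 ± 0.31 in OB (SD, n = 3 each), close to ENB. With CPM all ratios of this pair were higher, with a mean of 0.88 in LNB total mRNA instead of -0.13, and both tests passed (adjusted exact permutation p = 0.001587 and 0.005291).

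Libraries that share a second index sequence gave the following log2 differences for the called results. In total mRNA from NSC to ENB they were 2.48 and 2.13 for Gad2 and 3.24 and 2.58 for Slc32a1, and from NSC to Neuron 2.09 for Gad2, 3.15 for Slc32a1 and 4.34 for Slc12a5. Slc12a5 stood at 2.44 and 2.69 from ENB to LNB and at 3.46 from LNB to Neuron, and Slc6a11 at 4.55 and 6.54 from ENB to LNB. All of these have the sign of the value over all libraries. In ribosome-bound mRNA the ENB to LNB values were 2.52 for Gad1, 0.96 for Gad2 and 2.10 for Slc6a11, and Slc6a11 was at -1.97 from NSC to ENB. Neuron shares no index with NSC or LNB in that assay. The fit with an index term parts index from stage there only through other groups, the controls and ENB. Among the OB controls only replicate 3 has an index of the Neuron libraries. Values with an index term for Neuron ribosome-bound mRNA therefore rest on few libraries, and index is not fully separated from library.

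Each immunoprecipitate was then set against the control of its tissue. In Neuron, 4 of 7 genes were higher and 1 lower than in the OB control (11.6% of 19066 genes were higher, 15.7% lower and 27.4% called in either direction). Gad1 was 1.59 ± 0.25 higher (SE, n = 2 and 3; edgeR adjusted p = 0.000516), Slc32a1 2.00 ± 0.35 (0.00101) and Slc12a5 1.09 ± 0.21 (0.00195). Slc6a11 was lower (-2.35 ± 0.42, edgeR adjusted p = 0.00128), as were all 12 mature astrocyte markers. Gad2, 0.79 ± 0.28 higher (0.0435), lost its call without OB replicate 3 (0.0623), Neuron replicate 1 (0.184) or Neuron replicate 2 (0.0939), and with RLE factors (0.71, 0.0618) or the replicate block (0.69, 0.063). Abat and Slc12a2 did not pass (0.50 ± 0.29 and -0.35 ± 0.24, adjusted p = 0.213 and 0.288), and Abat passed with an index term (1.08, 0.0308).

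In LNB, Slc32a1 alone of the 7 was higher than the OB control (1.32 ± 0.32, n = 3 and 3; edgeR adjusted p = 0.0213), where 7.00% of all genes were higher and 10.1% called. The Slc32a1 call was lost without LNB replicate 2 (1.11, 0.105), LNB replicate 3 (1.43, 0.0745) or OB replicate 3 (1.07, 0.0776). Gad1 (0.69 ± 0.23, edgeR adjusted p = 0.0626) and Gad2 (0.77 ± 0.25, 0.0611) passed with the replicate block (0.0388 and 0.0331) and without OB replicate 2 (0.0404 and 0.0431). With DESeq2 Gad1 passed (0.0485), and so did Slc12a2 as lower (-0.67, 0.0337).

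In NSC, Slc6a11 was the 1 gene of 7 above the SVZ control (1.33 ± 0.38, n = 2 and 3; edgeR adjusted p = 0.0287; 8.75% of all genes higher, 15.3% called), beside 7 of 12 mature astrocyte markers. Without NSC replicate 2 the Slc6a11 difference was 0.86 (0.272), without SVZ replicate 2 or 3 the call was lost (0.105 and 0.107), and with an index term it was 0.80 (0.184). Gad1 and Gad2 were at -0.52 ± 0.26 and -0.70 ± 0.29 (0.172 and 0.104). They passed as lower with DESeq2 (0.0494 and 0.0314) and with an index term (-0.78 and -1.03, 0.0309 and 0.0398), and Gad2 also with the replicate block (-0.87, 0.0498).

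In ENB, 0 of 7 genes differed from the SVZ control by edgeR or DESeq2, and 0 had an unadjusted p under 0.05, with edgeR differences of -0.43 to 0.39 (background 1.52%). The neuroblast markers were nevertheless at 1884 and 3914 CPM in these immunoprecipitates, above the 596 to 783 of the control. Between the controls themselves, Gad1 and Slc6a11 were higher in OB, which is 2 of 7 genes (5.65% of all genes higher, 11.8% called). Between libraries of a shared index, the Neuron differences over control were 2.04 for Gad1, 1.64 for Gad2, 2.48 for Slc32a1, -1.50 for Slc6a11 and 1.34 for Slc12a5 (1 library against 1). The LNB difference of Slc32a1 was 0.97, the NSC difference of Slc6a11 was 0.77, and the difference between controls was 1.86 for Gad1 and 2.13 for Slc6a11.

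**Figure D5:**
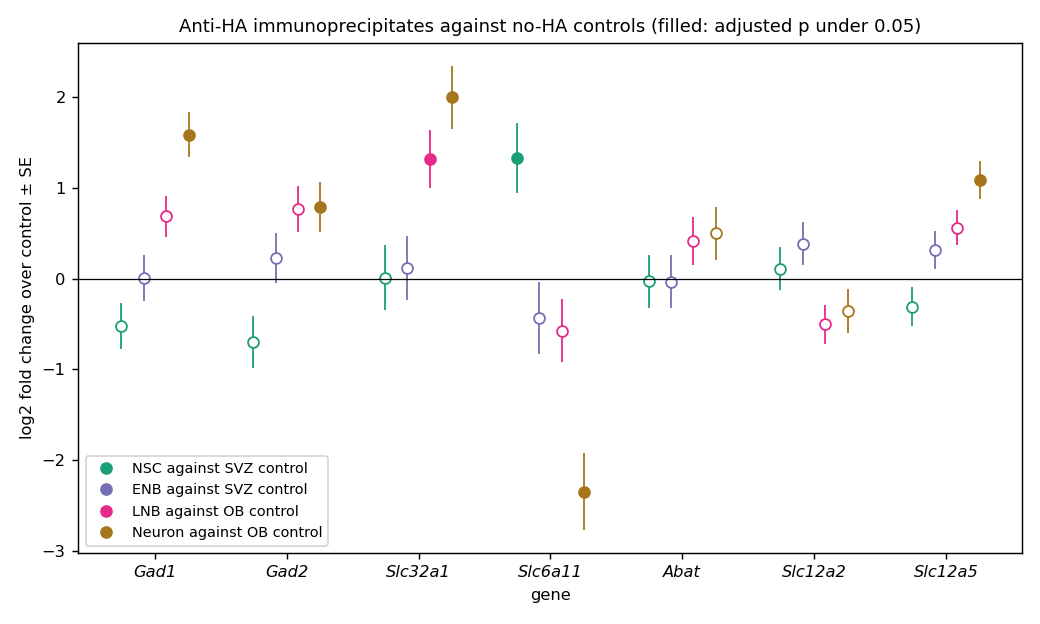
Log2 fold change ± SE of each gene in the 4 anti-HA immunoprecipitates over the no-HA control of the same tissue; filled points have an adjusted p under 0.05. Neuron has filled points above 0 for Gad1, Gad2, Slc32a1 and Slc12a5 and below 0 for Slc6a11, and ENB has none.

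Whether ribosome-bound mRNA changed differently from total mRNA was tested as an interaction over 21 libraries and 19913 genes. From NSC to ENB this held for 1 of 7 genes, upward (1.49% of all genes upward, 2.81% called). From ENB to LNB it held for 1 of 7 upward (1.89%) and 2 downward (4.26%), with 6.15% called, and from LNB to Neuron for 1 of 7 downward (1.69%), with 3.15% called. Slc12a5 was called at each step, at 3.85 ± 0.65, -2.60 ± 0.60 and -2.85 ± 0.60 (edgeR adjusted p = 0.00657, 0.0172 and 0.018). Its ribosome-bound level lay between 120.1 and 375 CPM while its total level ran from 2.29 to 220.3. Gad1 changed by 2.85 ± 0.79 more in ribosome-bound than in total mRNA from ENB to LNB (0.0386). Slc6a11 changed by less there (-4.80 ± 1.19, 0.0229). Sorting and homogenate differ between the assays as well as ribosome binding, and these cannot be told apart. For Neuron the labels do not settle whether the ribosome-bound libraries were sorted.

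These interaction calls depend on single libraries. For Slc12a5, the first step was lost without NSC ribosome-bound replicate 2 (3.67, adjusted p = 0.0576) and with an index term (3.37, 0.0582). The second was lost without ENB ribosome-bound replicate 1 (0.0844), LNB total replicate 1 (-2.07, 0.0588) or LNB ribosome-bound replicate 3 (0.0507), and with an index term (-2.58, 0.0526). The third was lost without either Neuron ribosome-bound library, replicate 1 or 2 (-3.03 and -2.81, 0.0689 and 0.128). The Gad1 call was lost without each library in turn except LNB total replicate 2 (0.0546 to 0.142), and also with the replicate block (2.65, 0.0585), an index term (2.78, 0.158) and expected counts. For Slc6a11 it was lost without ENB total replicate 1 or 3 (0.0532 and 0.0596), ENB ribosome-bound replicate 1 (0.0911), LNB total replicate 3 (-4.15, 0.0629) or LNB ribosome-bound replicate 2 or 3 (0.0656 and 0.071), and with an index term (-4.40, 0.0696). Gad2, not called from ENB to LNB (1.33 ± 0.41, edgeR adjusted p = 0.0597), passed with DESeq2 (1.25, 0.0338) and without LNB total replicate 2 (1.88, 0.00135).

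Other genes of GABA metabolism and transport formed a list of 14, of which 12 were tested in total mRNA. Of these, 0 rose and 4 fell from NSC to ENB, 3 rose and 0 fell from ENB to LNB, and 3 rose and 1 fell from LNB to Neuron, where 10.1%, 3.77% and 14.7% of all genes were called. Aldh9a1, an aldehyde dehydrogenase of a minor route to GABA, fell by 2.16 from NSC to ENB (SE 0.36; edgeR adjusted p = 0.00467). Pdxk, the kinase that makes the pyridoxal phosphate cofactor of the decarboxylases, rose by 2.25 ± 0.41 from LNB to Neuron (0.00413). Glul, the glutamine synthetase of astrocytes, rose by 3.05 ± 0.66 from ENB to LNB (0.0304) and was 0.68 without LNB replicates 1 and 3, a call that ended without any ENB library and without LNB replicate 1 or 3 alone (0.0723 to 0.126). The Glul call also ended with the replicate block (3.15, 0.0704), with an index term (2.66, 0.0987) and over the shared animals with the animal as a block (0.532).

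In ribosome-bound mRNA, 6 of the 14 rose and 3 fell from NSC to Neuron, where 11.0% of all genes rose and 15.7% fell. Slc1a1, a neuronal glutamate transporter, rose by 2.65 ± 0.28 (edgeR adjusted p = 4.09e-06). Glul fell by 3.35 (SE 0.52; 0.000188), and so did the monoamine oxidase Maob, by 3.65 (SE 0.64; 0.00051). Slc38a1, a glutamine transporter, rose by 1.69 ± 0.27 from ENB to LNB (0.000453), and stood at 0.67 with the control difference subtracted (0.445).

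Of 16 other genes of chloride transport and its regulation, 14 were tested in total mRNA. From NSC to ENB 0 passed with edgeR and 0 with DESeq2 (3 had an unadjusted p under 0.05 with edgeR), and from ENB to LNB 0 passed with edgeR and 1 with DESeq2 (4 under 0.05). From NSC to Neuron 4 rose and 1 fell (23.7% of all genes called), with a median log2 change of 0.82 over the list and -0.06 over all genes. Slc12a7 (KCC4), another potassium-chloride cotransporter, fell by 4.51 (SE 0.74; edgeR adjusted p = 0.00127), from a mean of 29.3 CPM in NSC to 1.30 in Neuron. The anion exchangers Slc4a8 (1.77 ± 0.45, 0.0148) and Slc4a3 (1.44 ± 0.38, 0.0173) rose. Both of these calls ended without NSC replicate 1 (0.0548 and 0.0589) or Neuron replicate 1 (0.0557 and 0.0635), and that of Slc4a3 also without Neuron replicate 2 (0.0502) and with an index term (1.33, 0.0592).

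In ribosome-bound mRNA 15 genes of the chloride list were tested, of which 5 rose and 3 fell from NSC to Neuron (11.0% and 15.7% of all genes). Slc12a7 fell from a mean of 18.8 CPM in NSC to 0 in both Neuron libraries, at least 152-fold lower against a floor of 3 counts over the group (edgeR adjusted p = 0.000702). Wnk4, a kinase that regulates these transporters, rose by 3.40 ± 0.94 (0.0135) from a mean of 0.94 CPM, a call that ended without NSC replicate 1 (2.45, 0.0642), with an index term (2.87, 0.143) and with the control difference subtracted (2.52, 0.167). From ENB to LNB Slc4a8 rose by 1.57 ± 0.25 (0.000501) and Stk39, the kinase SPAK, by 1.50 ± 0.40 (0.0211), and neither passed with the control difference subtracted (0.263 and 0.522). The Stk39 call also ended without ENB replicate 1 or 2 (0.127 and 0.11) or LNB replicate 2 or 3 (0.0595 and 0.0613).

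GABA receptor subunits, which form the channels that the transmitter opens and the other receptors that it activates, were tested as a list of 14. In total mRNA 1 rose and 5 fell from NSC to ENB, 5 rose and 0 fell from ENB to LNB, and 7 rose and 0 fell from LNB to Neuron, where 10.1%, 3.77% and 14.7% of all genes were called. From NSC to Neuron, Gabra2 rose by 2.42 ± 0.40 (edgeR adjusted p = 0.0013). Gabra4 rose by 2.92 ± 0.48 from ENB to LNB (0.0118), a call that ended without ENB replicate 1 or 2 (0.0594 and 0.0541), without LNB replicates 1 and 3 together (0.206) and over the shared animals with the animal as a block (0.507). In ribosome-bound mRNA 5 rose and 1 fell from NSC to Neuron (11.0% and 15.7% of all genes). Gabra5, the one with the smallest p, rose by 4.11 ± 0.32 (3.03e-07), and Gabra3 rose by 3.49 ± 0.49 (7.12e-05).

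Transcription factors of GABAergic fate rose early and fell late in sorted cells. Of 12 tested, 10 rose and 1 fell from NSC to ENB, and 0 rose and 11 fell from LNB to Neuron, where 10.1% and 14.7% of all genes were called. From ENB to LNB 0 passed with edgeR and 2 were lower with DESeq2 (5 had an unadjusted p under 0.05 with edgeR). Sp8 rose by 3.20 ± 0.39 at the first of these steps (edgeR adjusted p = 0.00107), and Dlx2, which is known to activate Gad genes, fell by 3.95 at the last (SE 0.35; 6.79e-05). The Neuron stage, where Gad1 total mRNA was highest, is the stage by which 11 of these 12 factors had fallen in total mRNA. In ribosome-bound mRNA their summed level was 3631 to 3895 CPM in LNB and 2848 to 3214 in Neuron. It was 1278 to 1411 in NSC. A link between these factors and Gad1 was not tested.

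In ribosome-bound mRNA 9 of the 12 fate factors rose and 1 fell from ENB to LNB (12.9% of all genes called). Sp9 rose by 1.91 ± 0.31 (0.000537), and stood at 0.23 with the control difference subtracted (0.856). From NSC to Neuron Pbx3 rose by 3.02 ± 0.30 (2.74e-06) and Sp8 by 4.30 ± 0.70 (0.000274). For Sp8 the sign turned with the control difference subtracted (-0.43, 0.805).

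The genes whose log2 level was most like that of each member over the 21 libraries without controls were named by Pearson's r, as a description with no test, since these libraries share stages and depth. For Slc12a5 they were Nsf (0.986), Prkce (0.984) and Eno2 (0.983), and for Gad1 B3galnt1 (0.958), Kcnj3 (0.953) and Grip2 (0.951). Gad2 was most like Atcay (0.961), Camta1 (0.948) and Cacnb3 (0.946), and Slc32a1 most like Celf5 (0.932), Ina (0.920) and Lypla2 (0.910). Slc6a11 was most like Pla2g7 (0.946), Sparcl1 (0.925) and Chrdl1 (0.920). Abat was most like Pdxk (0.961), Gaa (0.955) and Nceh1 (0.949), and Slc12a2 most like Dbpht2 (0.938), Dclk3 (0.917) and Akap5 (0.908). Among the 7 themselves r was 0.852 between Gad1 and Gad2, 0.903 between Abat and Slc12a5 and 0.748 between Slc12a2 and Slc12a5, and Slc6a11 had the lowest values with the others (-0.21 to 0.43).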

How the data were processed

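The deposited raw counts are whole-number reads per Ensembl gene, and the counting tool and strand setting are not given in the sources used here. Expected counts, also deposited, are estimated counts that were rounded to whole numbers before use, and the deposited TPM values were scaled by the authors to the same total of transcripts in each library. GRCm38, Bowtie2 2.2.6 and RSEM 1.2.21 are named, per the submitters' processing notes. The 27 libraries fell into 10 groups by title, and the data columns left with no sample numbered 0. Symbols were found for 44548 of 45195 genes, and 92 TPM rows that carry no gene ID stayed out.

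The raw counts were tested in R 4.3.3 with edgeR 4.0.16 (TMM factors, filterByExpr, quasi-likelihood F test, Benjamini-Hochberg adjustment over all genes of a fit, threshold 0.05). The 12 total mRNA libraries formed 1 fit, the 15 immunoprecipitation and control libraries another, and the 21 libraries without controls the fit of the interaction. This gave 16 comparisons. SE is the one implied by the F statistic. CPM was computed from the counts with TMM factors, and likeness of genes used log2(CPM + 0.5). Ratios used log2 of (TPM + 1) and an exact permutation test of the F statistic over libraries, with all 369600 or 7560 arrangements. PCR reads carry no molecular identifiers, so counts are not independent molecules, and with libraries of 200 to 500 cells the depth does not measure the number of mRNA molecules sampled.

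Alternatives were RLE factors, DESeq2 1.42.0, no filter on low counts, the replicate number as a block, the second index sequence of the library as a term, leaving out each library, the animal as a block over the ENB and LNB libraries of the same animals (4 libraries of 2 animal labels in each assay), and for ratios CPM or a pseudocount of 0.1. Chosen after seeing the data were expected counts, subtracting the difference between the controls, and leaving out LNB replicates 1 and 3 together, where the lone LNB library is assumed to vary like the other groups. Replicate numbers mark the same animal only in ribosome-bound ENB and LNB replicates 1 and 2. Same-numbered libraries had deviations from group means with r of -0.133 to 0.0623 in total mRNA (18 pairs) and -0.0115 to 0.103 in ribosome-bound mRNA (12 pairs).

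On simulated counts for LNB to Neuron, 45 of 100 genes changed 4-fold and 1 of 100 changed 2-fold were recovered in total mRNA (16932 genes), and 77 and 14 of 100 in ribosome-bound mRNA (18261 genes), with 1 false call each. The members and lists were chosen with earlier results of these data known. All members were named, with the 3 genes most like each, and from each of the 4 pathway lists up to 4 genes with the smallest p in each assay among those past the threshold. Some genes that this rule names are not reported here. Promoter sequences are RefSeq's for GRCm38.p6.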

Additional observations from a re-analysis of the deposited data

Results flagged for a closer look

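In 5 cases the change between stages differed between ribosome-bound and total mRNA by the interaction test, edgeR with adjusted p under 0.05. The groups had 2 or 3 libraries each, too few for a search for single outlying libraries.

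Slc12a5 is in this set at every step. From NSC to ENB its ribosome-bound change exceeded its total change by 3.85 on the log2 scale (adjusted p = 0.00657), from ENB to LNB the difference was -2.60 (0.0172), and from LNB to Neuron it was -2.85 (0.018). Sorted ENB cells held a mean of 2.51 CPM of Slc12a5, while the ENB immunoprecipitates held 208 and the SVZ controls without HA 160.3. The part of untagged tissue RNA in these differences was not tested.

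Gad1 rose more in ribosome-bound than in total mRNA from ENB to LNB, by 2.85 (edgeR adjusted p = 0.0386), and its no-HA control was 2.00 higher in OB than in SVZ. For Slc6a11 the difference at that step was -4.80 (0.0229), and LNB total replicates 1 and 3, with 1870.3 and 2642 CPM of Slc6a11, hold the high total level.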

How the results depend on the processing

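Of the member values recomputed under other settings, 1271 kept their side of the threshold, 55 gained a call and 87 lost one. The other 1 turned its sign with a call in the main or the other fit. It was Slc6a11 from ENB to LNB in ribosome-bound mRNA, at -0.14 after subtracting the control difference. Values called in neither fit count as kept even where the sign turned. Slc6a11 from LNB to Neuron in total mRNA, for example, ran from -3.32 to 1.26. Among other named genes 352 kept call and direction, 30 lost the call and Sp8 turned, to -0.43 from NSC to Neuron in ribosome-bound mRNA after the same subtraction. The causes were not tested.

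Counts of the 7 called moved as follows. With DESeq2 they were 5 from NSC to ENB and 3 from LNB to Neuron in total mRNA, 3 from NSC to ENB and 3 from LNB to Neuron in ribosome-bound mRNA, and 3 for the NSC and 3 for the LNB immunoprecipitate against control. With no filter they were 2 from LNB to Neuron in total mRNA, 2 from NSC to ENB and 2 from LNB to Neuron in ribosome-bound mRNA, and 2 for LNB against control. RLE factors gave 3 and 2 from LNB to Neuron in total and ribosome-bound mRNA, and expected counts gave 2 in total mRNA. An index term gave 1 from ENB to LNB in total mRNA, 2 from LNB to Neuron in ribosome-bound mRNA, 2 for NSC against control, and 0 for the interaction at the first and at the second step. Without LNB replicates 1 and 3 the total ENB to LNB count was 0, and subtracting controls left 0 from ENB to LNB in ribosome-bound mRNA. Leaving out 1 library gave 2 to 4, 0 to 4, 1 to 2 and 3 to 4 in total mRNA (NSC to ENB, ENB to LNB, LNB to Neuron, NSC to Neuron) and 0 to 1, 2 to 2, 0 to 1 and 4 to 5 in ribosome-bound mRNA. Against control it gave 0 to 1, 0 to 0, 0 to 3 and 4 to 5 (NSC, ENB, LNB, Neuron), between controls 2 to 3, and for the interaction 0 to 3, 0 to 5 and 0 to 1.

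The replicate block gave 2 of 7 called for NSC and 3 for LNB against control, and 205 genes from ENB to LNB in total mRNA and 193 for ENB against control over all genes. From ENB to LNB, the libraries of shared animals were also fitted with the animal as the block. In total mRNA 0 of 7 and 0 of all genes were then called. In ribosome-bound mRNA 5 of 7 were called, beside 3384 over all genes, against 2452 in the main fit. The calls of single genes that the block changed are given beside those genes.

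Over all genes, DESeq2 called 3566, 1993 and 4155 at the 3 total steps (edgeR 1772, 663 and 2580), 2954 and 1820 at the first and last ribosome-bound steps (1579 and 787), 859 for ENB and 3063 for LNB against control (290 and 1918), and 1629, 2333 and 1841 for the interaction (559, 1224 and 627). No filter gave 2400 and 1480 at those ribosome-bound steps and 636 for ENB against control. An index term gave 155 from ENB to LNB in total mRNA, 1176 for NSC against control (2925), and 43 and 449 for the first interactions. Without LNB replicates 1 and 3 there were 8 from ENB to LNB and 1474 from LNB to Neuron in total mRNA. Subtracting controls left 76 from ENB to LNB (2452) and 2199 from NSC to Neuron (5092) in ribosome-bound mRNA. Leaving out 1 library gave 721 to 892, 96 to 1643, 1565 to 2337 and 2605 to 3684 in total mRNA, and 354 to 962, 1271 to 1621, 347 to 1199 and 3802 to 4554 in ribosome-bound mRNA. Against control it gave 1050 to 3372, 1 to 224, 95 to 1842 and 2593 to 4772, between controls 1605 to 2199, and for the interaction 56 to 459, 321 to 2302 and 78 to 845. The adjusted exact permutation p without 1 library was 0.000779 to 0.003506 and 0.007937 to 0.02857 for the Slc12a2 to Slc12a5 ratio in total and ribosome-bound mRNA, and 0.00026 to 0.03214 and 0.002381 to 0.01861 for the Gad ratio.

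With RLE factors the share of higher calls went from 36.3% to 48.4% for LNB to Neuron in total mRNA (median over all genes -0.18 and -0.01), from 52.9% to 40.2% for ENB to LNB in ribosome-bound mRNA (0.08 and -0.06) and from 69.6% to 46.5% for LNB against control (-0.08 and -0.25). The interaction from LNB to Neuron with an index term could not be fitted and was not run. For LNB to Neuron, 1 of 100 simulated 2-fold changes was recovered in total mRNA and 14 of 100 in ribosome-bound mRNA. Those simulations had 47 and 92 genes called, against 2580 and 787 in the data. Adjustment over all genes is stricter where fewer genes change, so these shares do not measure what was missed in the data. A gene not called at that step is not shown to be unchanged.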
